A study of Mus musculus with 22 samples.

Results

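The Tle corepressors Tle1, Tle2, Tle3 and Tle4 and the Tcf/Lef DNA-binding factors Lef1, Tcf7, Tcf7l1 and Tcf7l2 were followed in mouse tumours of 3 genotypes. These 8 genes, of 48440 in the count table, were chosen by name because TLE1 is used as a marker of synovial sarcoma, the human tumour defined by an SS18-SSX fusion. The differences of Tle1 and Lef1 between genotypes in these counts were already known when the genes were chosen, so they are given below as descriptions with no test. The other genes and the gene lists used below were also chosen with earlier results of these data known. Their tests and counts may therefore not be independent of that choice. All 8 passed the filter on low counts, as did 18929 genes in all.

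Tle proteins do not bind DNA themselves. They form tetramers that are brought to genes by DNA-binding partners, among them Tcf/Lef factors, Hes, Runx and Forkhead proteins, and help to silence those genes with histone deacetylases. Tcf/Lef factors sit on targets of the Wnt pathway: with a Tle protein they repress, and when beta-catenin accumulates it takes the place of Tle and the same sites activate. Tcf7l1 is known mainly as a repressor, Lef1 mainly as an activator, and Tcf7 and Tcf7l2 as either.

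RNA was measured in 22 tumour libraries. The SS18-SSX tumours carried the fusion (6 libraries: 3 labelled Myf5, and 3 with no Cre named). Smarcb1-/- tumours (8 libraries, called Snf5-null here after the gene's older name) lacked Smarcb1, a core subunit of the SWI/SNF chromatin remodeller, with Cre labelled TATCre in 5 and Myf5 in 3. The combined tumours (8 libraries) had both lesions, with TATCre in 4 and Myf5Cre in 4. Cre is the recombinase that deletes or switches on floxed alleles; Myf5 drives it in muscle progenitors and their descendants, while TAT-Cre is a protein that enters the cells it is given to. The labels used here give no age, no site of the tumour, no wild-type tissue, and no statement that each library came from a separate animal, so p-values measure the spread between these libraries, which may in part be technical. Snf5-null libraries N43L and N43R carry 1 tag with an L and an R, so they may be a pair of tumours of 1 animal, and were the closest pair of their group (chi-square of 51.5 per degree of freedom); they were counted as 2 libraries, and summing them left the number of these 8 genes that were called within 1.5 times in every comparison. Their strain field holds a C57BL name whose last number changes from library to library, and it was not used.

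Total counts ran from 8642648 to 25177722 per library. Smarcb1 stood at 0.909 to 3.66 CPM (counts scaled to the library's TMM-adjusted total) in combined, 10.6 to 26.9 in Snf5-null and 47.1 to 111 in SS18-SSX libraries, so no library went against the Smarcb1 state on its label; the fusion itself was not checked here. No pair of libraries within a group agreed within sampling noise; the closest, N3 and N4 of the combined Myf5Cre group, had a chi-square of 39.5 per degree of freedom. The 6 libraries with the fusion alone carry other number series in their descriptions than the 16 others, so that library series and this genotype cannot be told apart. Macrophage markers moved with genotype: all 9 were called higher in Snf5-null than in SS18-SSX tumours, and all 9 were lower in combined tumours than in the Snf5-null ones (22.3% and 20.5% of all genes), with summed levels of 68.3 to 797 CPM in combined, 89.7 to 560 in SS18-SSX and 1421 to 5355 in Snf5-null libraries. Other cell types moved as well: in combined against Snf5-null tumours 3 of 3 NK cell, 3 of 4 B cell, 4 of 7 mature skeletal muscle and 3 of 6 fibroblast markers were lower, with 1 fibroblast marker higher. Summed muscle markers ran from 175 to 3940.03 CPM in combined, 6.72 to 14696 in SS18-SSX and 681 to 23032 in Snf5-null libraries. The NK cell markers were all higher in Snf5-null than in SS18-SSX tumours. All 4 B cell markers were called lower when combined tumours were set against the SS18-SSX ones, where 21.9% of all genes were lower. Summed B cell markers were low and overlapped, at 0.160 to 3.51 CPM in combined and 0.304 to 32.9 in SS18-SSX libraries. The value of 32.9 belonged to SS18-SSX library A alone, and the next highest of that genotype was 4.22 in N381. In bulk RNA, fewer cells of a type and less RNA per cell cannot be told apart, and the part of these cells in the results below was not tested.

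The Tle genes are close copies of each other, which bears on how their reads can be counted. The longest stretch identical between transcripts of Tle1 and Tle4 spans 68 bases in exon 15 of each, inside the coding sequence (GRCm38, chr4:72126252-72126319 and chr19:14454805-14454872, both minus strand). It is shown in capitals with 30 bases on each side, in which the copies differ at 6 positions.
Tle1: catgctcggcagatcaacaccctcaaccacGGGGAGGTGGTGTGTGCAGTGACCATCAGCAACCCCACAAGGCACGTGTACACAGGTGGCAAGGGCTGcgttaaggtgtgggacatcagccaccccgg
Tle4: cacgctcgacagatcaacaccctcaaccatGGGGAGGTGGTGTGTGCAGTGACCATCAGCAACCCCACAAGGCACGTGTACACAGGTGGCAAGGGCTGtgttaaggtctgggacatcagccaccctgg
Of all 50-base stretches of annotated Tle1 exons, 2.46% also occur in another gene (Tle4 or the antisense gene Gm11250), against 0.368% for Tle4, 0.732% for Tle2 and 0% for Tle3. A read inside the identical stretch cannot be given to 1 of the pair, but such stretches are a small part of either gene. Lef1 shares 13.7% of its stretches with many other genes, Tcf7l1 shares 1.29% with its antisense gene Gm15401, and Tcf7 and Tcf7l2 share none.

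The start regions of Tle1 and Lef1 are shown because these genes had the widest differences of Snf5-null tumours from both other genotypes. RefSeq (GRCm38.p6) gives 1 start for Tle1 and 4 for Lef1. The 250 bases before the Tle1 start (chr4:72200894-72201143, minus strand) and before the Lef1 start nearest to the annotated gene (chr3:131110073-131110322, plus strand) follow, 5′ to 3′ on the gene's strand, with each CG pair in capitals.
Tle1: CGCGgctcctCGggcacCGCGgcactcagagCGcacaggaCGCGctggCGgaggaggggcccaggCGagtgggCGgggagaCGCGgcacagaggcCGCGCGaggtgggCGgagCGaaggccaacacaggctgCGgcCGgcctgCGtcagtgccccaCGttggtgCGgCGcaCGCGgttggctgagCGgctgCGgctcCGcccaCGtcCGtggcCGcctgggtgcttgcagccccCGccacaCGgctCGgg
Lef1: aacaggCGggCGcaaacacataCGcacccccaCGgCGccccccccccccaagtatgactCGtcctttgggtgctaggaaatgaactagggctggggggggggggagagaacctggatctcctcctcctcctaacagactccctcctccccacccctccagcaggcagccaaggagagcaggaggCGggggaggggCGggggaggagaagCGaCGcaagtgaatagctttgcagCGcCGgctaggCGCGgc
These stretches hold 35 and 14 CG pairs. Over windows of 300 bases around the start, Tle1 held 40 CG pairs and this Lef1 start 21, against a median of 7 over 32851 windows in the same table. Both strands were searched for the Tcf/Lef core letters CTTTGA and their reverse complement TCAAAG, which 16% of all windows hold. Of the 14 windows of the 8 genes 1 holds them, at an internal Lef1 start, whose 250 upstream bases (chr3:131156044-131156293, plus strand) carry 2 copies, in capitals.
Lef1 internal start: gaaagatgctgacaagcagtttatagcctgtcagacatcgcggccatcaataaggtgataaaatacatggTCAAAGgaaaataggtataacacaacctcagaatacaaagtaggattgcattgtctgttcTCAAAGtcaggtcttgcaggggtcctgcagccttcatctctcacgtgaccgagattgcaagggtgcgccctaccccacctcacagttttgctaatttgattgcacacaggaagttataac
A match is a description of letters and says nothing of binding in these tumours.

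Tle1, Tle3 and Tle4 kept the same order of levels over genotypes, highest in SS18-SSX, intermediate in combined and lowest in Snf5-null tumours. For Tle1 and Tle3 there was no overlap between Snf5-null and the other genotypes. The share of all genes that lack overlap in this way was not counted, so a lack of overlap is a description here and below. Tle1 (ENSMUSG00000008305, chromosome 4, 72117142 to 72200919, minus strand), the diagnostic marker, had a lowest, median and highest CPM of 207, 266 and 398 in SS18-SSX, 159, 186 and 221 in combined, and 27.5, 40.9 and 46.7 in Snf5-null libraries. Every combined library thus stood above every Snf5-null library by a wide gap, while the lowest SS18-SSX library, A, lay within the combined range. As log2 fold changes, which are descriptions here, Tle1 was at 2.34 ± 0.13 (SE) in combined against Snf5-null, -0.60 ± 0.13 in combined against SS18-SSX, and -2.94 ± 0.14 in Snf5-null against SS18-SSX tumours. Between the Myf5Cre groups alone these were 2.72 ± 0.20, -0.68 ± 0.18 and -3.40 ± 0.21. Between the TATCre groups alone, combined against Snf5-null tumours gave 1.97 ± 0.16.

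Tle3 (ENSMUSG00000032280, chromosome 9, 61372366 to 61418497, plus strand), a widely expressed paralog, followed a similar course. Its lowest, median and highest CPM were 264, 408 and 571 in SS18-SSX, 173, 197 and 352 in combined, and 57.3, 80.1 and 97.2 in Snf5-null libraries. The SS18-SSX and combined ranges overlapped, since combined libraries N1 (Myf5Cre) and 78777 (TATCre) stood above SS18-SSX library N381. By edgeR's quasi-likelihood test with Benjamini-Hochberg adjustment, used for every adjusted p below, Tle3 was 2.82-fold higher in combined tumours than in the Snf5-null ones (log2 fold change 1.50 ± 0.19, adjusted p = 5.33e-06). It was lower in combined than in SS18-SSX tumours (-0.90 ± 0.19, adjusted p = 0.00106), a call not reached between the Myf5Cre groups alone (-0.67, adjusted p = 0.0613). Snf5-null tumours held 5.29-fold less Tle3 than SS18-SSX tumours (-2.40 ± 0.20, adjusted p = 2.09e-07).

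Tle4 (ENSMUSG00000024642, chromosome 19, 14448150 to 14598051, minus strand), which shares the printed stretch with Tle1, moved in the same directions by less. Its lowest, median and highest CPM were 89.0, 107 and 126 in SS18-SSX, 33.02, 64.0 and 90.3 in combined, and 22.7, 31.6 and 43.4 in Snf5-null libraries. Combined libraries overlapped both of the others: N3 and N4 of the Myf5Cre group stood within the Snf5-null range and N49 of the TATCre group just above the lowest SS18-SSX library. All 3 differences were called, at 0.89 ± 0.18 for combined against Snf5-null (adjusted p = 0.000662), -0.83 ± 0.19 for combined against SS18-SSX (adjusted p = 0.00182) and -1.72 ± 0.20 for Snf5-null against SS18-SSX tumours (adjusted p = 2.96e-06).

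Tle2 (ENSMUSG00000034771, chromosome 10, 81574561 to 81590845, plus strand) varied widely within groups. Its lowest, median and highest CPM were 18.8, 41.2 and 101 in SS18-SSX, 6.74, 22.6 and 51.1 in combined, and 3.60, 9.27 and 28.7 in Snf5-null libraries, so all 3 ranges overlapped. Combined against Snf5-null tumours gave 0.93 ± 0.42 with an adjusted p of 0.0728, which became 1.11 with an adjusted p of 0.0415 without Snf5-null library N43L. Tle2 was called lower in Snf5-null (-2.31 ± 0.46, adjusted p = 0.000504) and in combined than in SS18-SSX tumours (-1.38 ± 0.44, adjusted p = 0.0159). The second of these calls was lost without SS18-SSX library N381 (-1.0, adjusted p = 0.0839) or A (-1.03, adjusted p = 0.0745), the libraries where Tle2 was highest, and with genotype as the only term of the model (-1.24, adjusted p = 0.0597).

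**Figure D1:**
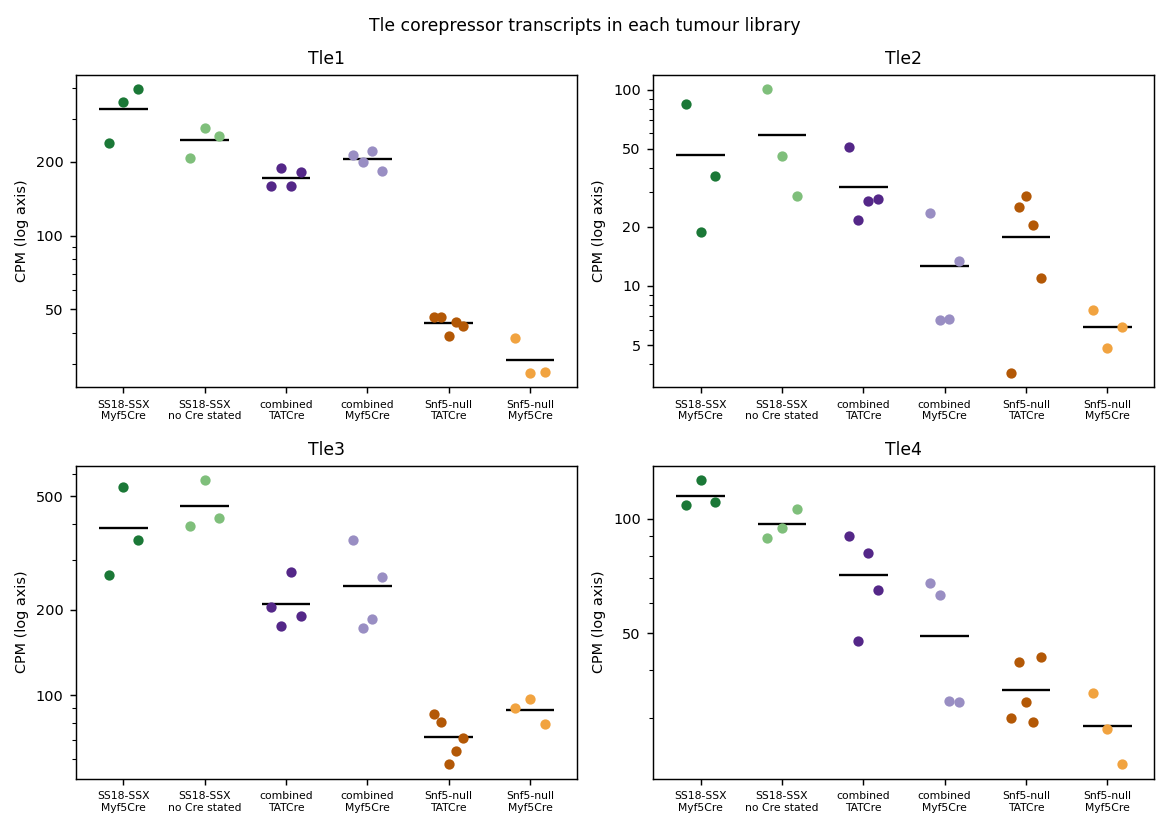
CPM of each Tle corepressor on a log axis, 1 point per library and a bar at the mean of each of the 6 groups. For Tle1 and Tle3 the 8 Snf5-null libraries sit below every other library (at most 46.7 and 97.2 CPM), while the Tle2 ranges overlap.

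Divided by exon length, which allows levels of different genes to be compared, the summed level of Tle1 to Tle4 was 96.4 ± 11.2 CPM per kilobase (SD, n = 6) in SS18-SSX, 55.2 ± 7.74 (n = 8) in combined and 19.1 ± 2.53 (n = 8) in Snf5-null tumours. These ranges did not overlap, at 82.7 to 112, 48.2 to 70.4 and 15.0 to 23.7. Tle1 was not the single main member of the family in SS18-SSX tumours: its share of the sum was 34.0 ± 6.31% against 37.4 ± 7.38% for Tle3. In combined tumours the shares were 39.9 ± 7.84% for Tle1 and 34.8 ± 5.94% for Tle3, again within their spread. Tle1 took 23.4 ± 3.25% in Snf5-null tumours (18.3 to 28.8%). That was below every combined library (30.4 to 52.7%) but overlapped the SS18-SSX range (26.5 to 45.2%). Tle4 went the other way, with 29.98 ± 3.43% of a much smaller sum in Snf5-null tumours (26.6 to 37.3%) against 18.9 ± 5.45% in combined (11.3 to 26.5%) and 19.4 ± 2.52% in SS18-SSX tumours (15.9 to 23.0%). These shares are descriptions, since they contain the known difference of Tle1.

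Lef1 (ENSMUSG00000027985, chromosome 3, 131110471 to 131224356, plus strand) spanned the widest relative range of the 8 genes. In SS18-SSX tumours it stood at 76.5, 160 and 135 CPM in the Myf5Cre libraries N381, N428 and N460 and at 68.7, 101 and 79.7 in A, B and N2, where no Cre is named. Combined tumours had 50.9, 85.4, 48.7 and 47.3 CPM in TATCre libraries N49, 78774, 78777 and 78780, and 27.2, 16.0, 23.4 and 19.6 in Myf5Cre libraries N1 to N4. Snf5-null tumours had 6.22, 15.4, 2.92, 5.24 and 9.13 CPM in TATCre libraries N1, N49, N43L, N43R and N51, and 1.19, 0.846 and 0.938 in Myf5Cre libraries N30, N31 and N33. The last 3 values rest on 15 to 21 counts each. From combined TATCre downwards no group overlapped the next one in the order; the SS18-SSX groups overlapped each other, and library 78774 reached into them. The descriptive log2 fold changes of Lef1 were 3.67 ± 0.31 for combined against Snf5-null, -1.52 ± 0.28 for combined against SS18-SSX and -5.19 ± 0.34 for Snf5-null against SS18-SSX tumours. They moved with the Cre label, to 4.44 ± 0.50, -2.52 ± 0.41 and -6.96 ± 0.56 between the Myf5Cre groups alone. Between the TATCre groups alone, combined against Snf5-null tumours gave 2.90 ± 0.37.

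Tcf7 (ENSMUSG00000000782, chromosome 11, 52252371 to 52283014, minus strand), best known from T cells, was low throughout. Its lowest, median and highest CPM were 5.66, 10.3 and 17.4 in SS18-SSX, 1.42, 3.34 and 12.5 in combined, and 1.25, 2.58 and 5.41 in Snf5-null libraries. SS18-SSX libraries stood above all Snf5-null libraries, and 78777 was the 1 combined library within the SS18-SSX range. Tcf7 was called lower than in SS18-SSX tumours both in Snf5-null (-2.05 ± 0.42, adjusted p = 0.000612) and in combined tumours (-1.36 ± 0.40, adjusted p = 0.0102). The difference between combined and Snf5-null tumours was 0.68 ± 0.38, with an adjusted p of 0.146.

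Tcf7l1 (ENSMUSG00000055799, chromosome 6, 72626378 to 72789254, minus strand), the repressor of the family, had the 1 difference that ran against the other genes. SS18-SSX libraries held 14.4, 31.4 and 15.5 CPM (N381, N428, N460) and 28.9, 34.3 and 14.0 (A, B, N2). Combined libraries held 5.05, 5.92, 5.14 and 3.08 with TATCre (N49, 78774, 78777, 78780) and 10.9, 9.69, 4.58 and 5.09 with Myf5Cre (N1 to N4). Snf5-null libraries held 7.67, 7.22, 3.80, 4.15 and 7.42 with TATCre (N1, N49, N43L, N43R, N51) and 19.5, 21.1 and 18.7 with Myf5Cre (N30, N31, N33). The Snf5-null Myf5Cre tumours thus stood inside the SS18-SSX range while the other Snf5-null and all combined tumours stood below it. Tcf7l1 was called lower in combined tumours than in Snf5-null (-0.86 ± 0.27, adjusted p = 0.0134) and than in SS18-SSX tumours (-1.92 ± 0.28, adjusted p = 7.42e-05). The first of these was called between the Myf5Cre groups alone (-1.38 ± 0.40, adjusted p = 0.0135) and not between the TATCre groups alone (-0.33 ± 0.36, adjusted p = 0.483). The gap between those 2 differences was itself not called (-1.05 ± 0.53, adjusted p = 0.309). With genotype as the only term the difference of combined from Snf5-null tumours was not called (-0.85, adjusted p = 0.0657). Snf5-null against SS18-SSX tumours gave -1.07 ± 0.29 (adjusted p = 0.00505), but -0.05 ± 0.43 (adjusted p = 0.941) between the Myf5Cre groups alone, and -0.69 (adjusted p = 0.056) without SS18-SSX library N428.

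Tcf7l2 (ENSMUSG00000024985, chromosome 19, 55741820 to 55933654, plus strand), the Tcf factor of gut epithelium and many other tissues, differed least. Its lowest, median and highest CPM were 1.26, 32.0 and 41.8 in SS18-SSX, 12.1, 25.9 and 44.9 in combined, and 10.0, 18.1 and 26.5 in Snf5-null libraries. The value of 1.26 belongs to library N428 alone and rests on 29 counts; the other 5 SS18-SSX libraries held 28.9 CPM or more. None of its genotype differences was called: 0.51 ± 0.44 for combined against Snf5-null (adjusted p = 0.339), -0.09 ± 0.46 for combined against SS18-SSX (adjusted p = 0.888) and -0.60 ± 0.47 for Snf5-null against SS18-SSX tumours (adjusted p = 0.296). Without N428 the last became -0.73 with an adjusted p of 0.0559. These misses do not show that the levels were alike.

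**Figure D2:**
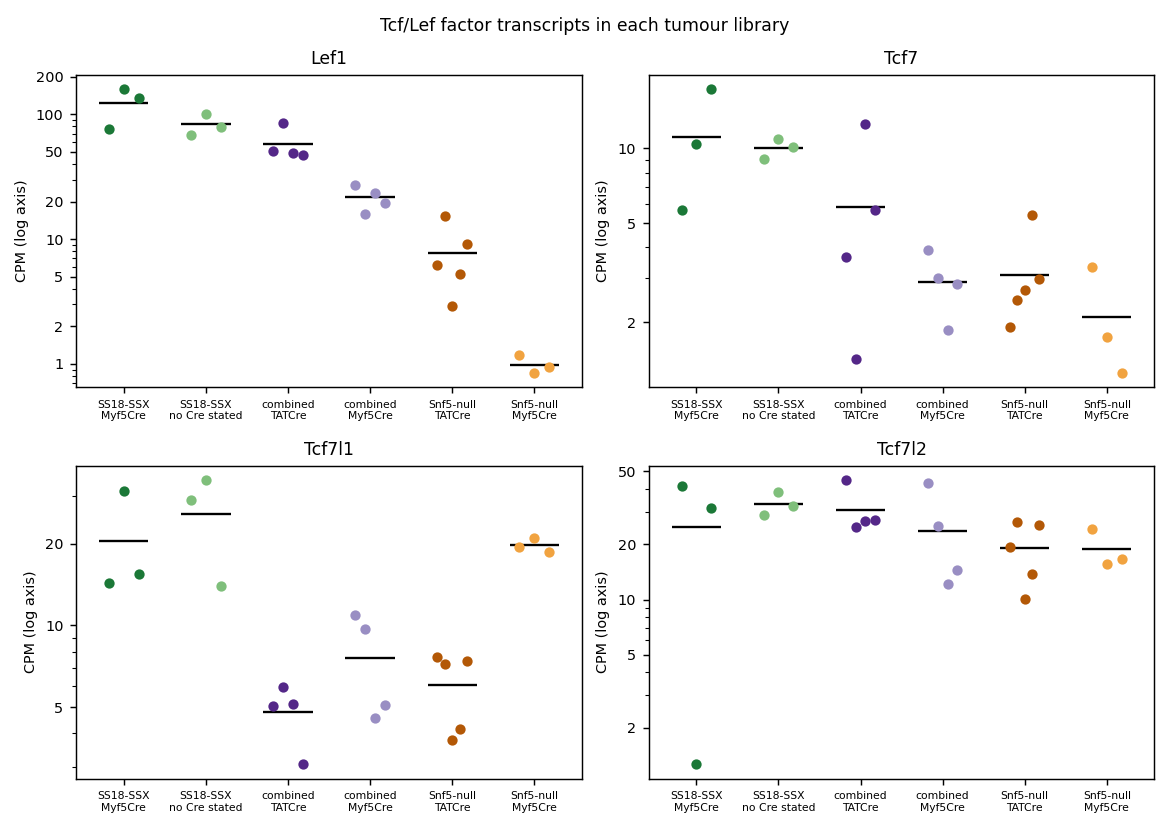
CPM of each Tcf/Lef factor on a log axis, 1 point per library and a bar at the mean of each of the 6 groups. Lef1 steps down from SS18-SSX to Snf5-null Myf5Cre tumours (about 1 CPM), Tcf7l1 is high again in the last group, and 1 SS18-SSX library holds Tcf7l2 at 1.26 CPM.

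Counted over the 6 genes that could be tested between genotypes, 2 were called higher (Tle3, Tle4), 1 lower (Tcf7l1) and 3 were not called in combined against Snf5-null tumours. Over all tested genes 29.1% were called higher and 20.5% lower in this comparison. Against SS18-SSX tumours, 5 of the 6 were called lower and 0 higher in combined tumours, where 21.9% of all genes were lower and 23.1% higher. The same 5 genes (all but Tcf7l2) were lower and 0 higher in Snf5-null tumours, against 25.9% lower and 22.3% higher of all genes. The latter comparisons share the SS18-SSX libraries. DESeq2 called 3, 5 and 5 of the 6 genes in these 3 comparisons. Over all tested genes the log2 fold change had a median of 0.23, -0.09 and -0.06 in the same order.

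**Figure D3:**
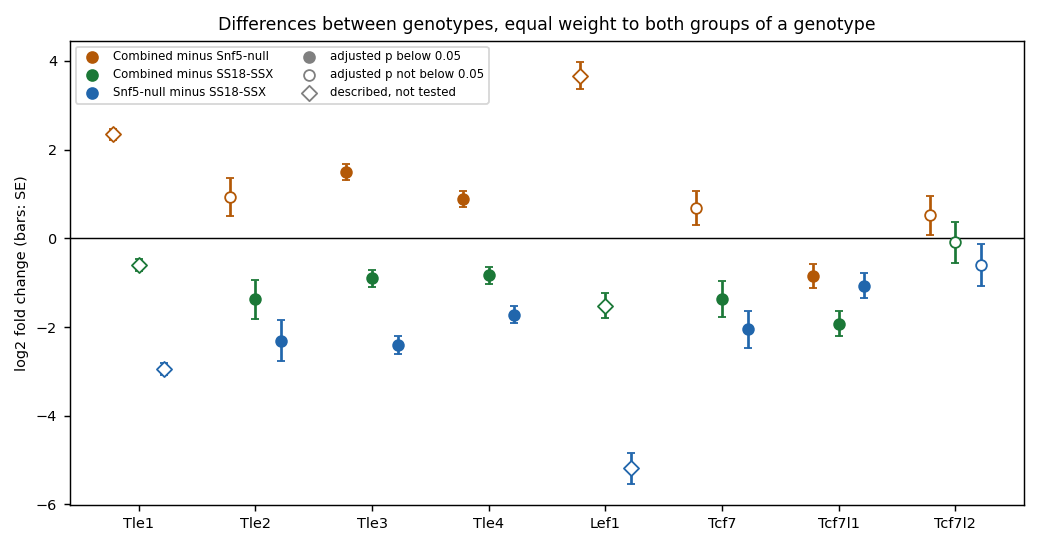
Log2 fold change between genotypes for each gene, with SE bars; filled circles passed the adjusted p of 0.05, open circles did not, and diamonds are untested descriptions. Most genes lie above 0 for combined against Snf5-null and below 0 for the comparisons with SS18-SSX; Tcf7l1 at -0.86 is the exception.

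Within the Tcf/Lef factors the leading gene differed between groups. The summed level of the 4 factors per kilobase was 25.0 ± 5.07 CPM (SD, n = 6) in SS18-SSX, 10.9 ± 3.59 (n = 8) in combined and 6.65 ± 1.77 (n = 8) in Snf5-null tumours. Lef1 made up 46.3 ± 8.72% of it in SS18-SSX tumours, 40.2 ± 13.9% in combined tumours and 9.47 ± 7.82% in all Snf5-null tumours, and 1.39 ± 0.148% (n = 3) in those with Myf5Cre. Tcf7l1 took 62.7 ± 7.26% of the sum in that last group, against 8.90 ± 1.48% (n = 4) in combined TATCre tumours. Split by Cre label, Lef1 held 48.5 ± 12.6% in combined TATCre (n = 4) and 31.9 ± 10.5% in combined Myf5Cre tumours (n = 4). Among the combined Myf5Cre libraries, Tcf7l2 led in N1 (39.95% against 25.3% for Lef1) and N2 (34.4% against 21.97%). Lef1 led in N3 (45.03%) and N4 (35.5%). Tcf7l2 held 32.9 ± 6.98% in Snf5-null, 28.6 ± 7.79% in combined and 14.3 ± 8.01% in SS18-SSX tumours; its CPM did not pass the test while the sum around it was smaller. The ratio of Lef1 to Tcf7l1 per kilobase had a median of 5.47 in combined TATCre (4.23 to 6.86), 2.37 in SS18-SSX Myf5Cre (2.28 to 3.90), 1.42 in combined Myf5Cre (0.738 to 2.29) and 1.31 in the other SS18-SSX libraries (1.06 to 2.54). It was 0.549 in Snf5-null TATCre (0.343 to 0.956) and 0.0224 in Snf5-null Myf5Cre libraries (0.0179 to 0.0272). In every SS18-SSX library Lef1 was above Tcf7l1 per kilobase, and in every Snf5-null library below it. These sums, shares and ratios are descriptions, since they contain the known difference of Lef1.

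**Figure D4:**
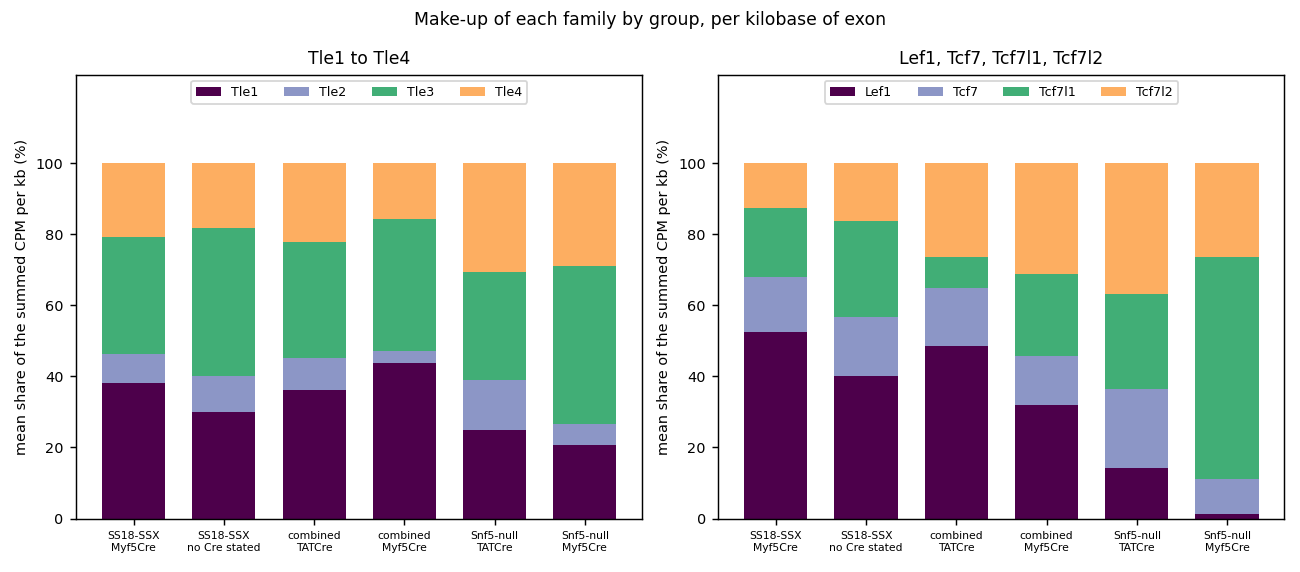
Stacked mean shares (%) of each gene in the summed CPM per kilobase of its family, for the 6 groups. Tle1 and Tle3 take the largest parts in the SS18-SSX and combined groups; in the Tcf/Lef panel Lef1 is at 1.39% and Tcf7l1 reaches 62.7% in Snf5-null Myf5Cre tumours.

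The Cre label was compared within genotypes, where all 8 genes could be tested. In Snf5-null tumours Lef1 was 7.82-fold lower with Myf5Cre than with TATCre (-2.97 ± 0.46, adjusted p = 0.00174) and Tcf7l1 3.26-fold higher (1.70 ± 0.37, adjusted p = 0.0146). The Tcf7l1 groups did not overlap, but its call was lost without Myf5Cre library N31 (1.67, adjusted p = 0.0809) or N33 (1.76, adjusted p = 0.0649). The other 6 genes were not called, among them Tle1 at -0.50 ± 0.18 (adjusted p = 0.111; DESeq2 -0.52, adjusted p = 0.0199), whose Myf5Cre libraries at 38.2, 27.5 and 27.7 CPM all stood below the TATCre libraries at 39.0 to 46.7. The background of calls was 1.78% higher and 3.19% lower over all genes. The summed macrophage markers of these groups overlapped (1421 to 4696 CPM with TATCre, 2170 to 5355 with Myf5Cre). Other markers separated them: summed NK cell markers stood at 0.443 to 1.64 CPM with TATCre and 3.19 to 5.25 with Myf5Cre (1 of 3 called higher), and summed keratinocyte markers at 0.878 to 19.4 and 0.0995 to 0.678 (0 of 4 called). Pdgfra, a receptor of fibroblasts and other mesenchymal cells, stood at 110.5 to 719.8 CPM with TATCre and 8.44 to 18.5 with Myf5Cre. All the other fibroblast markers overlapped between the groups, among them Lum at 122 to 362 and 231 to 519 CPM. The summed fibroblast markers overlapped too, at 6263 to 18263 and 5959 to 12757 CPM. With Myf5Cre 1 of 6 fibroblast and 1 of 8 endothelial markers were called lower. The part of these cells in the Lef1 and Tcf7l1 differences was not tested.

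In combined tumours 0 of the 8 genes were called by edgeR, against 3 at an unadjusted p below 0.05, 1 by DESeq2, and a background of 0.571% higher and 1.25% lower. Lef1 came nearest, at -1.43 ± 0.38 (adjusted p = 0.0544), with groups that did not overlap. Summed macrophage markers did not overlap either, at 249 to 797 CPM with TATCre and 68.3 to 202 with Myf5Cre (1 of 9 called lower). Nor did summed NK cell markers, at 0.293 to 0.976 and 0 to 0.0776 CPM, but these levels are near the floor (0 of 3 called). The part of these cells was not tested. For Lef1 DESeq2 gave -1.44 (adjusted p = 0.00654), and edgeR -1.50 without TATCre library 78777 (adjusted p = 0.0489). The test of whether the Cre difference itself depended on genotype called 0 of 8 genes in edgeR, with 2 at an unadjusted p below 0.05, 1 in DESeq2 (Tle1, 0.76, adjusted p = 0.0173) and a background of 1.32% higher and 1.10% lower. For Lef1 that interaction was 1.54 ± 0.56 (adjusted p = 0.145) and for Tcf7l1 -1.05 ± 0.53 (adjusted p = 0.309), so neither was shown to respond differently in the 2 genotypes. Between the SS18-SSX groups, which differ in number series as well as in the Cre label, edgeR also called 0 of 8, with 1 at an unadjusted p below 0.05, 0 by DESeq2 and a background of 0.866% higher and 1.25% lower.

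Of 3 further Tle family members on the list 2 were tested, and Tle7 was not. Tle5 (listed as Aes in the annotation used), a short form that can block the others, and Tle6, an atypical member of egg and early embryo, were called in the direction of Tle3 in both comparisons with Snf5-null tumours. Both were called higher in combined tumours than in the Snf5-null ones, at 0.61 ± 0.18 (adjusted p = 0.00789) and 1.64 ± 0.35 (adjusted p = 0.000869), where 29.1% of all genes were higher. Both were lower in Snf5-null than in SS18-SSX tumours (-0.99 ± 0.19 and -1.72 ± 0.36; 25.9% of all genes), and neither was called between combined and SS18-SSX tumours. Tle6 was also lower with Myf5Cre within Snf5-null tumours (-2.54 ± 0.54, adjusted p = 0.0122).

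Among 25 factors known to recruit Tle proteins, 23 were tested. In combined against Snf5-null tumours 8 were higher, 5 lower and 10 not called, near the 29.1% higher and 20.5% lower of all genes, with a median log2 fold change of 0.65 against 0.23 over all genes. The largest were Hes5, a Notch effector (6.07 ± 1.19), Msx1, a homeobox factor of limb and face (5.73 ± 0.69), Nkx2-2 (3.78 ± 1.38) and Tbx20, a T-box factor of the heart (3.48 ± 1.17), with adjusted p from 4.15e-06 for Msx1 to 0.0319 for Nkx2-2. Msx1 had the highest level of these, at 170 ± 232 CPM in combined against 4.85 ± 4.56 in Snf5-null tumours. Against SS18-SSX tumours 14 of 23 were lower and 0 higher in combined tumours (21.9% and 23.1% of all genes; median -2.25 against -0.09), led by Foxa2 (-7.42 ± 0.99), En2 (-6.07 ± 0.86), Pax5 (-3.66 ± 0.76) and Nkx2-2 (-3.28 ± 1.03). In Snf5-null against SS18-SSX tumours 12 were lower and 1, Hhex, higher (25.9% and 22.3% of all genes; median -2.36 against -0.06). The lowest were Foxa2 (-9.36 ± 1.22), En2 (-7.32 ± 0.99), Nkx2-2 (-7.06 ± 1.45) and Hes5 (-7.02 ± 1.24), and En2, a homeobox factor of the midbrain and hindbrain, stood at 0.386 ± 0.519 CPM in Snf5-null, 1.33 ± 3.01 in combined and 53.3 ± 31.1 in SS18-SSX tumours. Within Snf5-null tumours Myf5Cre went with lower Gsc (-8.19 ± 1.84), Tbx15 (-4.45 ± 1.19) and Hes1 (-1.74 ± 0.42) and higher Hes7 (2.52 ± 0.63), the 4 of 23 called (3.19% lower and 1.78% higher over all genes).

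Beta-catenin itself, encoded by Ctnnb1, was not called in the comparisons of combined tumours with Snf5-null (0.19, adjusted p = 0.472) and SS18-SSX tumours (-0.27, adjusted p = 0.334), nor between Snf5-null and SS18-SSX tumours (-0.45, adjusted p = 0.102). Of 10 genes, beta-catenin and its cofactors, 3 were higher and 0 lower in combined against Snf5-null tumours, where 29.1% of all genes were higher and 20.5% lower: Cby1, which binds beta-catenin and holds it back (1.45 ± 0.27), and the coactivators Bcl9l (1.2 ± 0.28) and Bcl9 (0.78 ± 0.21). In combined against SS18-SSX tumours 2 were higher and 3 lower (23.1% and 21.9% of all genes), led by the coactivator Pygo1 at -1.41 ± 0.32 and Cby1 at 1.14 ± 0.29. Snf5-null against SS18-SSX tumours gave 2 higher and 4 lower (22.3% and 25.9% of all genes), with Pygo1 (-1.60 ± 0.32), Bcl9l (-1.52 ± 0.29), Bcl9 (-1.03 ± 0.22) and Ctnnbip1, an inhibitor of beta-catenin (0.77 ± 0.23), changed most. The list medians were 0.18, -0.26 and -0.38, against 0.23, -0.09 and -0.06 over all genes, and the count for combined against Snf5-null tumours was near the background.

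Of 9 enzymes that act with or on Tle or Tcf proteins, 3 were higher and 1 lower in combined against Snf5-null tumours, beside 29.1% and 20.5% of all genes (median 0.19 against 0.23). Those were the Tle partners Hdac1 (1.39 ± 0.23) and Hdac2 (0.83 ± 0.23), the kinase subunit Csnk2a1 (0.45 ± 0.12) and, lower, the kinase Hipk2 (-1.19 ± 0.34). In combined against SS18-SSX tumours 2 were higher and 2 lower (23.1% and 21.9% of all genes; median -0.35 against -0.09), with Tnik, a kinase that acts on Tcf factors, at -3.16 ± 0.59, Hipk2 at -2.28 ± 0.36 and Hdac1 at 1.63 ± 0.25. In Snf5-null against SS18-SSX tumours 0 were higher and 5 lower (22.3% and 25.9% of all genes; median -0.52 against -0.06), led by Tnik (-2.73 ± 0.60) and Hipk2 (-1.08 ± 0.36). Hdac1, a histone deacetylase that Tle proteins bind, thus did not follow Tle1: it stood at 44.2 ± 14.1 CPM in combined tumours, 16.3 ± 5.73 in Snf5-null and 15.1 ± 5.67 in SS18-SSX tumours.

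Textbook Wnt targets, 14 in all, were split in combined against Snf5-null tumours, with 6 higher and 4 lower (29.1% and 20.5% of all genes; median 0.79 against 0.23 over all genes). The largest were Sp5 (7.68 ± 1.33), Tnfrsf19 (6.23 ± 0.95), Nkd1 (6.00 ± 0.57) and Apcdd1 (5.27 ± 0.85), all higher; Nkd1, a feedback inhibitor, stood at 77.5 ± 62.0 against 1.27 ± 1.64 CPM. Against SS18-SSX tumours 1 (Myc) was higher and 7 lower in combined tumours (23.1% and 21.9% of all genes; median -0.56 against -0.09), led by Wif1, a secreted Wnt inhibitor (-5.08 ± 1.06), and Rnf43, which removes Wnt receptors (-3.94 ± 0.77). In Snf5-null against SS18-SSX tumours 1 (Myc) was higher and 9 lower (22.3% and 25.9% of all genes; median -2.49 against -0.06), led by Sp5 (-7.82 ± 1.35), Apcdd1 (-7.74 ± 0.98), Tnfrsf19 (-5.84 ± 0.94) and Nkd1 (-5.10 ± 0.55). These directions were known in part from earlier results on the same libraries, and the last 2 comparisons share the SS18-SSX libraries. Within Snf5-null tumours, where Lef1 was lower with Myf5Cre, 2 of the 14 were called, Bmp4 lower (-6.36 ± 0.78) and Notum higher (3.54 ± 0.83), where 3.19% of all genes were lower and 1.78% higher. Within combined tumours Notum was instead lower with Myf5Cre (-3.90 ± 0.90, adjusted p = 0.0368), and the difference between these Cre effects was called (-7.45 ± 1.23, adjusted p = 0.00635).

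Tcf7 and Lef1 are also expressed in T cells, so T cell markers were read beside them. The summed level of 13 markers ran from 5.12 to 60.7 CPM over combined, 8.85 to 35.2 over SS18-SSX and 21.1 to 90.0 over Snf5-null libraries. The highest combined sums rested mainly on 1 gene, Trac, the constant segment of a T cell receptor chain, which reached 45.0 CPM with TATCre and 24.7 with Myf5Cre, against at most 2.78 in SS18-SSX and 10.8 in Snf5-null libraries. Of the 13 markers 11 were called lower in combined tumours than in the Snf5-null ones (20.5% of all genes), and 6 higher and 0 lower in Snf5-null than in SS18-SSX tumours (22.3% and 25.9%). Lef1 differed the other way in both of these comparisons; Tcf7 was called, lower, in the second alone. In combined against SS18-SSX tumours 7 of the 13 were lower and 1 higher (21.9% and 23.1% of all genes), and Lef1 and Tcf7 were lower too. The part of T cells in these differences was not tested. In the combined Myf5Cre group Cd3d, Cd3e, Cd3g and Cd8a were at 0 in all 4 libraries, and Cd2, Cd5, Cd28, Cd247 and Trbc2 at 0.361 CPM at most, but Trac stood at 2.83 to 24.7, Lck at 1.01 to 3.31 and Cd4 at 0.662 to 1.23 CPM. In the same libraries Lef1 stood at 16.0 to 27.2 CPM and Tcf7 at 1.86 to 3.90 CPM. Within Snf5-null tumours the highest Tcf7 value of each group belonged to the library with most T cell markers, N43R (5.41 CPM) and N30 (3.33 CPM). In the SS18-SSX groups it belonged to the library with the lowest marker sum, N460 (17.4 CPM) and B (10.9 CPM). In the combined groups it belonged to 78777 (12.5 CPM) and N1 (3.90 CPM), and neither had the highest marker sum of its group.

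**Figure D5:**
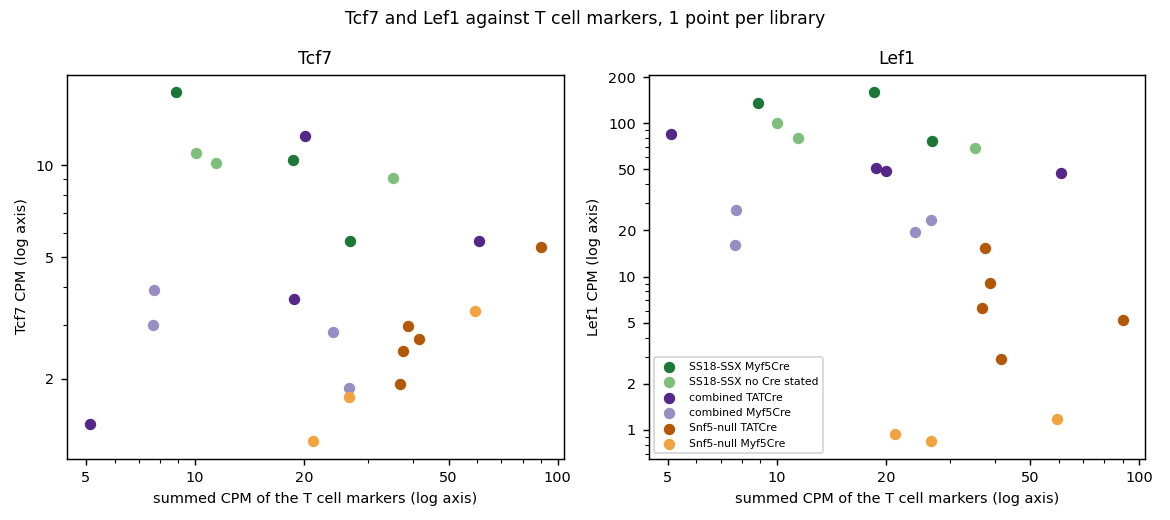
CPM of Tcf7 (left) and Lef1 (right) against the summed CPM of 13 T cell markers, both on log axes, 1 point per library coloured by group. SS18-SSX libraries lie high on both genes with marker sums of 8.85 to 35.2 CPM, and Snf5-null libraries lie low with sums of 21.1 to 90.0 CPM; the highest combined sums are mainly Trac.

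Over the 22 libraries, as a description across genotypes that share these differences, log2 CPM of Tle1 correlated with Lef1 at r = 0.92, with Tle3 at 0.91 and with Tle4 at 0.82, but with Tle2 at 0.54, Tcf7l1 at 0.15 and Tcf7l2 at 0.07. The 5 genes with the highest correlation to Tle1 were Igsf21 (0.96), Tspyl4 (0.95), Gm1826 (0.95), Pllp (0.95) and Kirrel2 (0.95). Igsf21 averaged 42.1 CPM over SS18-SSX, 26.3 over combined and 0.854 over Snf5-null libraries. For Tle3 the gene most alike was Bcor, a corepressor of a Polycomb complex (0.98; 864, 387 and 60.2 CPM), followed by Caskin1 and Agbl5. Bcl11b, a zinc-finger repressor, came first for Tle4 (0.95; 112, 44.6 and 4.21 CPM), followed by Adcy1 and Sdk1. Lef1 was most like Mfap2 (0.94), Cilp2 (0.94) and Zfp423 (0.94). For Tle2 they were Hr, Shank1 and Tfr2 (0.86 to 0.88), for Tcf7 Fxyd7, Pomt1 and Kif7 (0.89 to 0.91), for Tcf7l1 Gm16565, Henmt1 and Washc2 (0.85 to 0.89), and for Tcf7l2 Arid1b, a subunit of SWI/SNF (0.87), Hlcs and Gm9776.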

How the data were processed

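The members and lists were chosen with earlier results of these data known. Per the labels' protocols, tumour RNA was extracted with RNeasy and libraries made with the TruSeq Stranded mRNA kit. Tools listed in the submitters' processing notes are STAR 2.7.5a, cutadapt, RSEM, featureCounts and DESeq2, with the mm10 build and no role for each; the handling of reads matching several genes is not stated there. The authors deposited raw whole-number counts for 48440 genes in 22 libraries, and no row lacked a gene. Of the IDs 48058 matched GENCODE M21 (GRCm38), which gave positions and exon lengths.

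Genes were kept by filterByExpr (minimum count 10, minimum total 15), leaving 18929 genes with 99.91% of the counts. In R 4.3.3, edgeR 4.0.16 scaled libraries by TMM and fitted 1 quasi-likelihood model of 6 groups to all 22 libraries. Genotype contrasts gave both groups of a genotype equal weight. Calls were made at a Benjamini-Hochberg adjusted p below 0.05 over all tested genes; Tle1 and Lef1 were left untested between genotypes. The script was tested on simulated data. Alternatives were DESeq2 1.42.0, RLE scaling, no low-count filter, genotype as the only term, single Cre labels, N43L and N43R summed, and each library left out. CPM used TMM-scaled totals; a correlation used log2 CPM with a prior count of 2. Named genes were the 8 members, up to 4 called genes per list and comparison with the largest change, and the genes most correlated with a member (5 for Tle1, 3 for each other).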

Additional observations from a re-analysis of the deposited data

Results flagged for a closer look

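Within Cre groups and whole genotypes of 4 to 8 libraries, 48 gene and group pairs were searched for a library standing far from the others, and 5 were found. For normally spread values chance alone marks about 1 group in 20. The genotypes contain the Cre groups and pool their levels, so that rate need not hold here. In SS18-SSX tumours Tcf7l2 was at 1.26 CPM (29 counts) in Myf5Cre library N428, against 28.9 to 41.8 CPM in the other 5. Its upstream neighbours on chromosome 19 stood in N428 at 17.0 CPM for Vti1a (28.5 to 44.7 in the others), 33.5 for Zdhhc6 (17.7 to 48.8) and 19.2 for Acsl5 (40.4 to 51.8). Each of these 3 genes stood within the range of the other libraries, or nearer to it than Tcf7l2; the cause was not tested.

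Combined TATCre library N49 held Tcf7l2 at 44.9 CPM, where the other 3 libraries of its group held 24.8 to 27.3. The same library held Tle2 at 51.1 CPM, the highest of 8 combined libraries, and only just passed the limit (a gap of 0.527 of the range against 0.526). Library 78774 of the same group held Lef1 at 85.4 CPM against 47.3 to 50.9 in the others. Library 78777 held Tcf7 at 12.5 CPM, where the other 7 combined libraries held 1.42 to 5.63.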

How the results depend on the processing

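RLE scaling, no low-count filter and summing N43L with N43R left the number of called members within 1.5 times in every comparison, as did DESeq2 between genotypes. DESeq2 called 1 member rather than 0 for Cre in combined tumours and 1 rather than 0 for the interaction. With each library left out in turn, 1 to 2 members were called for Cre in Snf5-null tumours and 0 to 1 for Cre in combined tumours. Without dividing by length, the share of Lef1 in SS18-SSX tumours was 60.9% rather than 46.3%, that of Tcf7l1 in combined TATCre tumours 4.77% rather than 8.90%, and that of Lef1 in Snf5-null Myf5Cre tumours 2.37% rather than 1.39%. On that scale Tcf7l2 led the factors over all Snf5-null tumours pooled, at 49.7% against 28.8% for Tcf7l1 (32.9% and 40.3% per kilobase). Within each Snf5-null group the leader was the same on both scales. With TATCre it was Tcf7l2 (36.8% against 26.8% for Tcf7l1 per kilobase). With Myf5Cre it was Tcf7l1 (62.7% against 26.3% for Tcf7l2 per kilobase, 47.9% against 44.8% without dividing). Without dividing, Tle3 stood above Tle1 in combined tumours, at 44.9% and 38.6%. Directions that turned when 1 library was left out all belonged to differences that were not called. They ranged from -0.35 to 0.21 for Tcf7l2 in combined against SS18-SSX tumours, from -0.23 to 0.16 for Tcf7l2 and Cre in Snf5-null tumours, and from -0.01 to 0.35 for Tle3 and Cre in combined tumours. In the interaction they ranged from -0.30 to 0.50 for Tle2, -0.33 to 0.04 for Tle3 and -0.77 to 0.26 for Tcf7. Between the SS18-SSX groups they ranged from -0.26 to 1.08 for Tle2, -0.47 to 0.34 for Tcf7 and -0.10 to 1.01 for Tcf7l2. The cause was not tested. No paired analysis was made, because any pair of the 6 groups shares at most 1 tag. Over whole genotypes, Snf5-null and combined libraries share the tags N1 and N49, but the labels do not say that a shared tag means a shared animal. Depth limits Lef1 in Snf5-null Myf5Cre tumours, at 15 to 21 counts per library.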
